A study of Mus musculus with 8 samples.

Results

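The 9 genes described here, Glul, Oat, Axin2, Lgr5, Rnf43, Znrf3, Tbx3, Slc1a2 and Rhbg, are hepatocyte genes of the zone around the central vein whose expression depends on Wnt signaling. They were chosen by name from the 45706 genes of the count table, all 9 were found there, and all 9 were among the 14629 genes with enough counts to be tested. The livers came from 4 WT and 4 SA/SA C57BL/6J female mice that were 4 months old, and every mouse of both genotypes had been fasted overnight. SA/SA mice carry PLIN5 S155A, a serine to alanine change introduced by CRISPR-Cas9 in the endogenous gene of the lipid droplet protein perilipin 5, in the whole body and not in hepatocytes alone. The line goes back to a sequenced founder mouse. Fed mice were not analysed here, so the values do not show a response to fasting. The comparison asks whether loss of this phosphorylation site changed pericentral gene expression in the fasted liver.

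In the liver, endothelial cells of the central vein release Wnt ligands and R-spondin, which stabilize beta-catenin in the nearby hepatocytes. Beta-catenin then acts with TCF/LEF factors on its target genes, so that the pericentral hepatocytes differ from the periportal ones. Glul and Oat serve nitrogen metabolism, Slc1a2 and Rhbg carry glutamate and ammonium across the cell membrane, Axin2, Rnf43 and Znrf3 are feedback inhibitors of the pathway, Lgr5 is an R-spondin receptor, and Tbx3 is a transcription factor.

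Libraries held 39709785 to 54540864 counts, with a median of 50231612. Expression is given as CPM, counts scaled by the TMM-normalized library size. The labels give hepatocytes as the cell type of the liver samples. All 10 hepatocyte markers examined were expressed, and so were all 12 sinusoidal endothelial, 9 stellate and 8 Kupffer cell markers, so the values were read as whole liver. In such bulk samples, fewer cells of a type and less RNA per cell cannot be told apart. A pair of libraries stood apart in the markers of other cells. In SA/SA replicate 3, 12 lymphocyte and plasma cell markers summed to 2068 CPM, against 20.5 to 49.1 CPM in the 7 other mice. In WT replicate 2, 14 pancreatic acinar markers summed to 51.5 CPM, against 4.33 to 6.58 CPM in the others. The animal numbers in the labels formed a low run (89 to 123) and a high run (830 to 869), each with 2 WT and 2 SA/SA mice. What the runs stand for is not stated, and differences within them are given beside the pooled ones. Plin5, the edited gene, was between 183 and 254 CPM in WT and between 192 and 457 CPM in SA/SA mice (log2 fold change 0.67, adjusted p = 0.993 with edgeR; 0.92 in the low and 0.29 in the high run), and counts per gene hold no information on the edited codon.

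Of the 9 genes, 0 differed between SA/SA and WT mice at an adjusted p under 0.05 in edgeR's quasi-likelihood test, where 0 of all 14629 genes passed (0%). At an unadjusted p under 0.05 there were again 0 of 9, against 3.40% of all genes. With DESeq2, 0 of 9 passed after adjustment (0.0410% of all genes) and 2 of 9 before it (4.06% of all genes). With limma-voom these numbers were 0 of 9 (0% of all genes) and 1 of 9 (3.19% of all genes). The WT and SA/SA mice overlapped for each of the 9 genes, where 2.30% of all genes had no overlap. The log2 fold change (log2FC), always SA/SA against WT, was positive for 6 of 9 genes (48.8% of all genes). Its median over the 9 genes was 0.12, against -0.0050 over all genes tested.

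**Figure D1:**
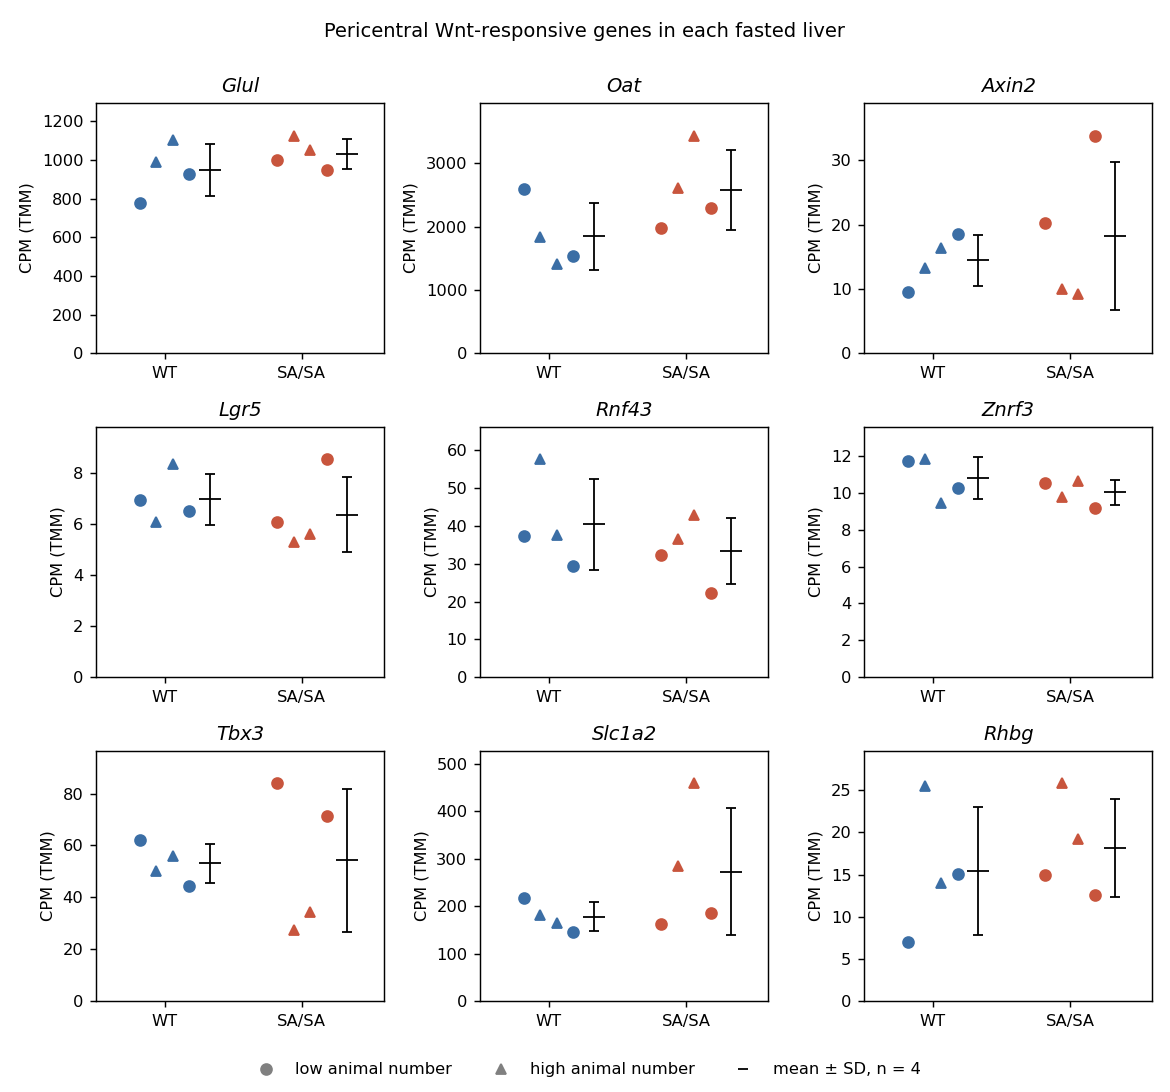
Expression of the 9 genes in each liver, in TMM-normalized CPM on linear axes from 0, with WT in blue and SA/SA in red; circles are mice with low and triangles mice with high animal numbers, and the bars give mean ± SD (n = 4). The genotypes overlap in every panel, and in the panels of Axin2 and Tbx3 the SA/SA circles lie above and the SA/SA triangles below the WT mice of the same run.

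Per kilobase of annotated exon, the 9 genes covered a wide range. Averaged over the 8 mice, Oat was highest at 938 ± 282 CPM per kb (SD, n = 8), followed by Glul at 298 ± 33.4 and Slc1a2 at 17.2 ± 7.90 CPM per kb. Rhbg was at 8.66 ± 3.32, Tbx3 at 8.11 ± 2.82 and Rnf43 at 5.64 ± 1.59 CPM per kb. The lowest levels were those of Axin2 at 2.97 ± 1.49, Znrf3 at 1.32 ± 0.123 and Lgr5 at 0.649 ± 0.117 CPM per kb. The metabolic enzymes were thus far above the signaling genes, and the ranges over mice did not touch between Oat and Glul, Glul and Slc1a2, Axin2 and Znrf3, or Znrf3 and Lgr5. Rhbg, Tbx3 and Rnf43 could not be ordered: Rhbg was above Tbx3 in 4 of 8 mice, and Tbx3 above Rnf43 in 5 of 8 mice. The range of Slc1a2 met that of Rhbg, although Slc1a2 was higher in 8 of 8 mice, and Rnf43 was above Axin2 in 7 of 8 mice. Exon length was taken from the annotation and not from the transcripts expressed, so a level is approximate where few of the isoforms are used.

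The sequences in front of the start sites are shown for Slc1a2 and Oat, the genes with the largest log2FC of the 9, and for Axin2, a classical target of the pathway. In the promoter sequences of RefSeq (GRCm38.p6), 6 windows were found for 5 of the 9 genes (Glul, Oat, Axin2, Rnf43 and Slc1a2), and none for Lgr5, Znrf3, Tbx3 and Rhbg. The 250 bases before each start were searched on both strands for the TCF/LEF core motif as CTTTGA or CTTTGT, which 13.8% and 16.5% of 32851 promoter windows held, and 27.6% held at least 1 of them. Capitals mark a match. The windows are chr11:108920099-108920348 on the forward strand for Axin2 and chr7:132576399-132576648 on the reverse strand for Oat. For Slc1a2 the window is chr2:102706188-102706355 on the forward strand, ahead of an internal start of the gene, and it is shown up to an annotated exon of 29 bases.
Axin2: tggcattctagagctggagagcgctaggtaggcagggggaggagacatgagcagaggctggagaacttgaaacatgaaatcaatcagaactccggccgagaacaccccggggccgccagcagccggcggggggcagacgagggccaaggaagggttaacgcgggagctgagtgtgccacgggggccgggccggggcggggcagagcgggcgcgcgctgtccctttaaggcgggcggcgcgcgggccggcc
Oat: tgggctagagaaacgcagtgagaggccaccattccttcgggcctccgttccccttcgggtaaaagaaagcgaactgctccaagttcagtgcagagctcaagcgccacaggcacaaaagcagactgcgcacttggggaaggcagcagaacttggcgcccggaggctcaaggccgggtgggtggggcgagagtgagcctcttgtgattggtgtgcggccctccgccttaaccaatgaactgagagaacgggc
Slc1a2: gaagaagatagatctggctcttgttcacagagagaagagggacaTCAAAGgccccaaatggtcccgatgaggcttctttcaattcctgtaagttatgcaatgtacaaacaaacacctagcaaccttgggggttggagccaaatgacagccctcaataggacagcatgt
Of the 6 windows, 1 held the motif, that of Slc1a2. Its first match, in capitals above, starts 206 bases before the RefSeq start on the reverse strand and is part of the longer form CTTTGAT, which contains CTTTGA and was present in 3.21% of windows. The second is 77 bases before the start, on the forward strand within the exon. In the windows of Axin2 and Oat these letters are absent, which says nothing of sites elsewhere in the genes.

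Glul (ENSMUSG00000026473) encodes glutamine synthetase, which fixes ammonia that the periportal urea cycle has left, in a narrow ring of cells at the central vein. In GRCm38 the gene spans positions 153899944 to 153909723 of chromosome 1, on the forward strand. Glul was at 775, 987, 1101 and 930 CPM in WT replicates 1 to 4, and at 998, 1126, 1050 and 948 CPM in SA/SA replicates 1 to 4. WT replicate 1 was lowest and SA/SA replicate 2 highest, with the remaining mice of both genotypes mixed between them. Mean and SD were 948 ± 136 CPM in the 4 WT and 1031 ± 76.1 CPM in the 4 SA/SA mice. Glul had a log2FC of 0.12 (standard error, SE, 0.12, 95% interval -0.16 to 0.40, adjusted p = 0.993 from edgeR). It was 0.039 without WT replicate 1 and 0.20 without WT replicate 3. Teddm2, on the opposite strand, shares 116 exon bases with Glul and had 37 to 85 counts per mouse, and the sources used here do not say if strand was used in the counting. In the difference of mean log2 CPM, Glul was at 0.20 in the low run and 0.061 in the high run.

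Oat (ENSMUSG00000030934) encodes ornithine aminotransferase, a mitochondrial enzyme that takes ornithine toward glutamate and proline. It lies on chromosome 7 from 132557478 to 132576398 on the reverse strand, within the annotated span of Fgfr2 on the same strand, with 0 exon bases in common. Oat was at 2592, 1844, 1416 and 1541 CPM in WT replicates 1 to 4, and at 1973, 2611, 3441 and 2292 CPM in SA/SA replicates 1 to 4. WT replicate 1 was higher than 2 of the SA/SA mice, and the 3 other WT mice were below every SA/SA mouse. Between the genotypes Oat had a log2FC of 0.48 (SE 0.22, 95% interval -0.012 to 0.97, unadjusted p = 0.0549, adjusted p = 0.993 from edgeR). An exact permutation test on its log2 CPM, two-sided, gave p = 0.114. Most of the difference lay in the high run, at 0.89 in mean log2 CPM, against 0.089 in the low run. The highest value was that of SA/SA replicate 3, the mouse with the lymphocyte transcripts, and without this mouse the log2FC was 0.31. Without WT replicate 1, the WT mouse within the SA/SA range, it was 0.69 (unadjusted p = 0.00640, adjusted p = 0.963 from edgeR).

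Slc1a2 (ENSMUSG00000005089) encodes the glutamate transporter GLT-1, known from astrocytes and present in pericentral hepatocytes. It lies on chromosome 2 from 102658659 to 102790784 on the forward strand. Gm13872, on the opposite strand, shares 189 of its exon bases and had 0 counts in every mouse. Slc1a2 was at 218, 182, 166 and 147 CPM in WT replicates 1 to 4, and at 164, 286, 459 and 185 CPM in SA/SA replicates 1 to 4. SA/SA replicates 2 and 3 were above every WT mouse, while SA/SA replicates 1 and 4 lay within the WT range. Mean and SD were 178 ± 30.4 CPM in the 4 WT and 273 ± 135 CPM in the 4 SA/SA mice, a log2FC of 0.62 (SE 0.29, 95% interval -0.038 to 1.27, unadjusted p = 0.0623, adjusted p = 0.993 from edgeR; two-sided exact permutation test, p = 0.229). This was the largest of the 9 log2FC values. It was 1.06 in mean log2 CPM in the high run and -0.040 in the low run. Without SA/SA replicate 3, the log2FC of Slc1a2 was 0.25.

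Rhbg (ENSMUSG00000104445) encodes an ammonium transporter of the Rhesus family on the basolateral membrane. It lies on chromosome 3 from 88242874 to 88254709 on the reverse strand and shares 1190 exon bases with Gm38392, annotated on the same strand. Reads there could have been divided between them, and Gm38392 had 0 to 10 counts per mouse. Rhbg was at 7.05, 25.5, 14.0 and 15.1 CPM in WT replicates 1 to 4, and at 15.0, 25.8, 19.2 and 12.6 CPM in SA/SA replicates 1 to 4. WT replicates 1 and 2 marked nearly the whole range, and the SA/SA mice lay between or just above them. For Rhbg the log2FC was 0.24 (SE 0.35, adjusted p = 0.993 from edgeR). It was 0.00082 without WT replicate 1 and 0.59 without WT replicate 2, the mouse with the acinar transcripts, so single WT mice set its size.

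Axin2 (ENSMUSG00000000142) encodes a scaffold of the complex that degrades beta-catenin and is a target of the pathway in many tissues. It lies on chromosome 11 from 108920349 to 108950783 on the forward strand. Gm11670, on the opposite strand, shares 209 of its exon bases and had 0 counts in every mouse. Axin2 was at 9.55, 13.3, 16.3 and 18.6 CPM in WT replicates 1 to 4, and at 20.2, 9.97, 9.24 and 33.9 CPM in SA/SA replicates 1 to 4. SA/SA replicates 1 and 4 were above every WT mouse. SA/SA replicate 3 was below every WT mouse, and SA/SA replicate 2 was below all WT mice but replicate 1. Mean and SD were 14.4 ± 3.92 CPM in the 4 WT and 18.3 ± 11.5 CPM in the 4 SA/SA mice, and the log2FC was 0.35 (SE 0.39, 95% interval -0.53 to 1.22, adjusted p = 0.993 from edgeR). The direction rested on SA/SA replicate 4, without which the log2FC of Axin2 was -0.13.

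Rnf43 (ENSMUSG00000034177) and Znrf3 (ENSMUSG00000041961) encode related membrane ubiquitin ligases that remove Frizzled receptors from the cell surface and are themselves removed when R-spondin binds an LGR receptor. Rnf43 lies on chromosome 11 from 87662722 to 87735539 on the forward strand, and Znrf3 on the same chromosome from 5276324 to 5444847 on the reverse strand. Rnf43 was at 37.4, 57.6, 37.6 and 29.3 CPM in WT replicates 1 to 4, and at 32.3, 36.6, 42.9 and 22.2 CPM in SA/SA replicates 1 to 4. The highest value was that of WT replicate 2 and the lowest that of SA/SA replicate 4. The log2FC of Rnf43 was -0.27 (SE 0.23, adjusted p = 0.993 from edgeR), and it was -0.054 without WT replicate 2 and -0.41 without SA/SA replicate 3. In WT replicate 2 the acinar markers, and also the summed cholangiocyte markers at 104 CPM against 44.7 to 75.8 CPM in the other mice, were highest. Whether these cells had a part in the Rnf43 value was not tested. Znrf3 was at 11.7, 11.8, 9.43 and 10.2 CPM in WT replicates 1 to 4, and at 10.5, 9.74, 10.6 and 9.17 CPM in SA/SA replicates 1 to 4, a log2FC of -0.11 (SE 0.12, 95% interval -0.38 to 0.16, adjusted p = 0.993). Its log2FC was -0.062 without WT replicate 1 and -0.17 without WT replicate 3. For both ligase genes the change had the same sign in the low and the high run, at -0.31 and -0.23 for Rnf43 and at -0.15 and -0.053 for Znrf3.

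Lgr5 (ENSMUSG00000020140), the R-spondin receptor, lies on chromosome 10 from 115450311 to 115587780 on the reverse strand. Its counts were the lowest of the 9 genes, between 212 and 431 per library. Lgr5 was at 6.96, 6.06, 8.34 and 6.49 CPM in WT replicates 1 to 4, and at 6.06, 5.29, 5.60 and 8.52 CPM in SA/SA replicates 1 to 4. The SA/SA mice contained both the highest and the lowest value. For Lgr5 the log2FC was -0.13 (SE 0.19, 95% interval -0.54 to 0.29, adjusted p = 0.993 from edgeR). It was -0.029 without WT replicate 3 and -0.30 without SA/SA replicate 4, and by run, in mean log2 CPM, SA/SA minus WT was 0.096 (low) and -0.38 (high).

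Tbx3 (ENSMUSG00000018604), a T-box repressor that acts downstream of beta-catenin in liver, lies on chromosome 5 from 119670669 to 119684724 on the forward strand. The antisense gene Tbx3os1 shares 115 of its exon bases on the opposite strand and had 180 to 828 counts per mouse, so that without strand in the counting reads of both could not be told apart. Tbx3 was at 62.1, 50.04, 55.9 and 44.3 CPM in WT replicates 1 to 4, and at 83.9, 27.6, 34.5 and 71.3 CPM in SA/SA replicates 1 to 4. The 4 WT mice lay together and the SA/SA mice split to either side of them, with no SA/SA mouse inside the WT range. The means were nearly equal, at 53.1 ± 7.66 CPM in WT and 54.3 ± 27.5 CPM in SA/SA (SD over 4 mice). For Tbx3 the log2FC was 0.034 (SE 0.32, 95% interval -0.67 to 0.74, adjusted p = 0.999 from edgeR). Its sign turned in 6 of 18 alternative fits.

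The split of Tbx3 and Axin2 followed the animal numbers. In the low run, Tbx3 was at 62.1 and 44.3 CPM in WT against 83.9 and 71.3 CPM in SA/SA mice, a difference in mean log2 CPM of 0.56. In the high run it was at 50.04 and 55.9 CPM in WT against 27.6 and 34.5 CPM in SA/SA mice, a difference of -0.78. Axin2 differed by 0.97 in the low run and by -0.61 in the high run, again with no overlap of the genotypes in either run. Such a separation in opposite directions was found for 2 of the 9 genes and for 9.49% of all genes. Slc1a2 and Oat went the other way, with SA/SA above WT in the high run.

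**Figure D2:**
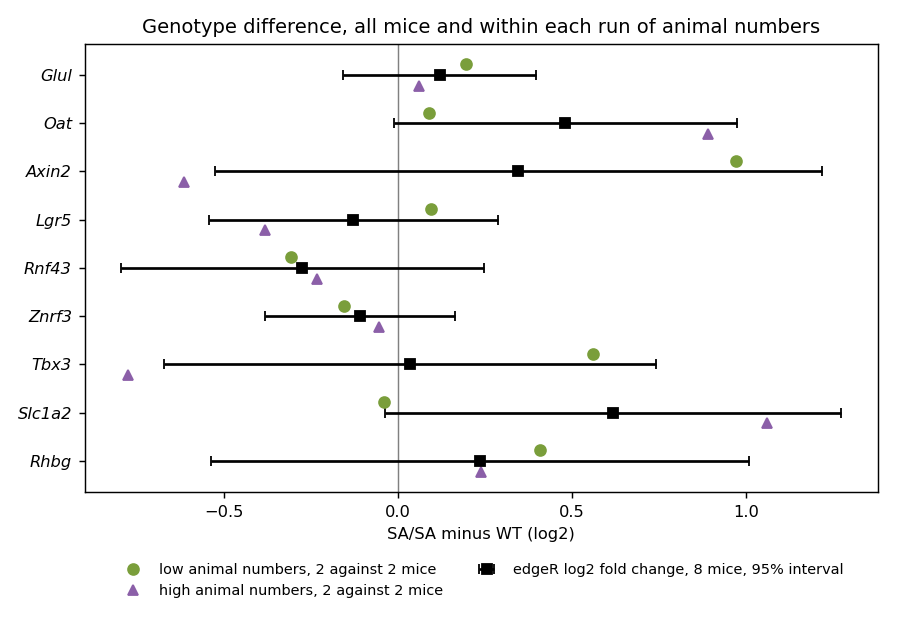
Difference between SA/SA and WT for each gene on the log2 scale: black squares are edgeR log2FC values over 8 mice with 95% intervals, circles and triangles are differences in mean log2 CPM between 2 SA/SA and 2 WT mice with low and with high animal numbers. All 9 intervals include 0, and the circles and triangles lie on opposite sides of 0 for Axin2, Tbx3, Lgr5 and Slc1a2.

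The difference of the genotype effect between the runs was tested as an interaction (high run minus low run), a test added after the data were seen. In edgeR's quasi-likelihood test it was -1.32 on the log2 scale for Tbx3 (unadjusted p = 0.000988, adjusted p = 0.222), -1.57 for Axin2 (unadjusted p = 0.00920, adjusted p = 0.307), 1.17 for Slc1a2 (unadjusted p = 0.00952, adjusted p = 0.308) and 0.85 for Oat (unadjusted p = 0.0469, adjusted p = 0.440). After adjustment 0 of 9 genes passed, as did 0 of all genes (0%). At an unadjusted p under 0.05 there were 4 of 9 genes against 11.1% of all genes, and at an unadjusted p under 0.01 there were 3 of 9 genes against 3.20% of all genes. DESeq2 in place of edgeR passed 3 of 9 genes after adjustment, where it passed 1.95% of all genes, with an adjusted p of 0.00237 for Tbx3, 0.0392 for Axin2 and 0.0440 for Slc1a2. When mice were left out singly, the edgeR interaction stayed between -1.57 and -1.09 for Tbx3, between -2.12 and -1.14 for Axin2 and between 0.78 and 1.47 for Slc1a2, and the adjusted p was at least 0.111 for these genes. These values rest on 2 mice of each genotype in each run. The 10 hepatocyte markers also moved with the runs, with 4 of 10 at an unadjusted interaction p under 0.05 and a median difference between genotypes of -0.14 in the low and 0.30 in the high run. So did the 8 Kupffer cell markers: the median over them of the difference between genotypes was -0.49 in the low and 0.90 in the high run on the log2 scale, and the part of either in the result was not tested.

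The 9 genes did not rise and fall together from mouse to mouse. Of the 36 pairs of genes, 16 had a positive and 20 a negative Pearson correlation of log2 CPM over the 8 mice, with a median of -0.083. Only Oat and Slc1a2 passed after adjustment over the 36 pairs (Pearson r = 0.88, exact permutation p = 0.000794, adjusted p = 0.0286, n = 8 mice). Their Spearman rho was 0.88 (exact permutation p = 0.00724, adjusted p = 0.130), and no pair passed by rho. Without WT replicate 3 and SA/SA replicate 3, the mice farthest from the median of Oat, r was 0.86, and over deviations from the genotype means it was 0.84. On CPM without TMM 0 pairs passed, with a smallest adjusted p of 0.0813, as did 0 pairs over deviations from the genotype means, with 0.139 by exact permutation. Glul and Rhbg had an r of 0.78 (exact permutation p = 0.0248, adjusted p = 0.379) and a rho of 0.57 (exact permutation p = 0.151, adjusted p = 0.453), and r was 0.086 without WT replicate 1 and SA/SA replicate 2, so that the relation rested on those mice. Axin2 and Tbx3 had an r of 0.64 (exact permutation p = 0.0843, adjusted p = 0.379), and Axin2 and Slc1a2 an r of -0.65 (exact permutation p = 0.0729, adjusted p = 0.379). Their rho was 0.62 (exact permutation p = 0.115, adjusted p = 0.453) and -0.71 (exact permutation p = 0.0576, adjusted p = 0.415), and without SA/SA replicates 3 and 4 r was 0.49 and -0.88. Within a run or a genotype there were too few mice for a correlation.

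**Figure D3:**
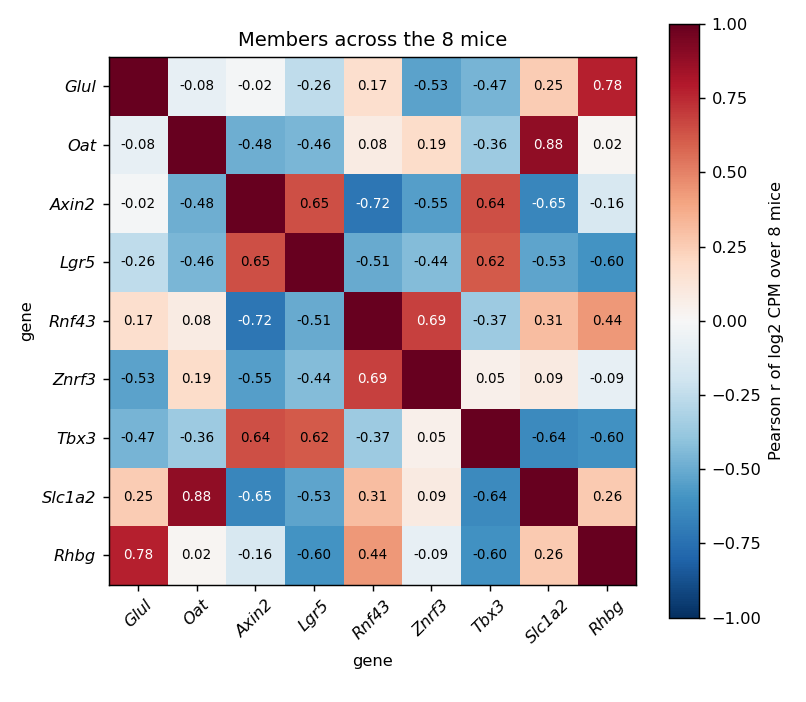
Pearson correlation of log2 CPM over the 8 mice for each pair of the 9 genes, with r written in each square and coloured from blue (-1) to red (1). Oat with Slc1a2 (0.88) is the highest value, Axin2, Lgr5 and Tbx3 correlate with each other at 0.62 to 0.65, with no pair of them past the threshold, and Axin2 with Rnf43 (-0.72) is the lowest.

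By Pearson r over the 8 mice, the genes most like Glul were Xcr1 (0.97), Oas1g (0.96) and Banf1 (0.95), and those most like Axin2 were Tuft1 (0.97), Pprc1 (0.97) and E030037K01Rik (0.96). These are the highest values among all genes tested and are given as a description without a test. Xcr1 was at most 0.414 CPM.

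The rest of the Wnt pathway was examined in 4 lists with 61 genes, of which 46 were tested. No gene passed an adjusted p of 0.05 with edgeR (0 of 46). Before adjustment, 1 gene was higher with p under 0.05, Wnt5b, and 1 was lower, Lrp6. In either direction, 3.40% of all genes had such a p. The log2FC was negative for 31 and positive for 15 of 46 genes, where it was positive for 48.8% of all genes. Its median was -0.088 against -0.0050 over all genes. The ranges of the genotypes were separate for 3 of the 46 genes, or 6.52%, against 2.30% of all genes in either direction. All 3 were lower in SA/SA mice. Of all genes, 1.36% were lower without overlap, but this direction was picked after the values were seen.

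Of the ligands and R-spondins, 9 of 13 were tested. The central vein ligands Wnt2 and Wnt9b and the R-spondin Rspo3 were expressed at low levels. Wnt2 was at 1.87 ± 0.575 CPM in WT and 1.98 ± 0.127 CPM in SA/SA (SD over 4 mice), Wnt9b at 0.868 ± 0.0886 and 1.22 ± 0.454 CPM, and Rspo3 at 4.96 ± 0.884 and 4.17 ± 1.70 CPM. Rspo3 was at 4.89 and 6.23 CPM in SA/SA replicates 1 and 4 and at 2.69 and 2.88 CPM in SA/SA replicates 2 and 3. Its difference from WT was 0.070 in the low and -0.71 in the high run. The interaction of Rspo3 had an unadjusted p of 0.0618 and an adjusted p of 0.478 with edgeR. In the low run Axin2 differed by 0.97 and Tbx3 by 0.56, and the part of Rspo3 in these differences was not tested. Wnt2 differed by -0.077 in the low and 0.34 in the high run, and Wnt9b by 0.44 and 0.36. Their interactions had unadjusted p values of 0.555 and 0.757 with edgeR. Wnt5b, a ligand of the branch that does not use beta-catenin, was at 8.42 ± 1.24 CPM in WT and 11.8 ± 2.99 CPM in SA/SA mice, a log2FC of 0.48 (SE 0.19, unadjusted p = 0.0302, adjusted p = 0.993).

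Lrp6, the co-receptor that binds Wnt together with Frizzled, was at 57.2, 55.7, 54.7 and 67.4 CPM in WT replicates 1 to 4, and at 49.1, 48.2, 48.6 and 50.9 CPM in SA/SA replicates 1 to 4. Every SA/SA mouse was below every WT mouse. Its log2FC was -0.26 (SE 0.095, unadjusted p = 0.0223, adjusted p = 0.993 from edgeR). A two-sided exact permutation test gave p = 0.0286, the lowest value possible for 4 mice against 4. Every gene without overlap has this value, 2.30% of all genes, so it adds nothing to the separation itself. Ctnnb1, which encodes beta-catenin, was at 154.8, 137, 142 and 145 CPM in WT replicates 1 to 4, and at 130.4, 127, 118 and 136 CPM in SA/SA replicates 1 to 4, a log2FC of -0.18 (SE 0.091, adjusted p = 0.993). Tcf7l2, the main TCF factor of hepatocytes, was between 9.82 and 10.6 CPM in WT and between 7.77 and 9.61 CPM in SA/SA mice, with a log2FC of -0.26 (SE 0.12, adjusted p = 0.993). The separation was narrow for Ctnnb1 and Tcf7l2 and, for Ctnnb1, was lost without TMM, where the lowest WT mouse was at 135 CPM and the highest SA/SA mouse at 139 CPM. The log2FC values of Lrp6, Ctnnb1 and Tcf7l2 were negative in 17 of 17 alternative fits, with a smallest adjusted p of 0.798. These fits reuse the same mice. Genes picked for a full separation were nearly bound to keep their sign when a mouse was left out, so 17 of 17 adds little. As their genotypes did not overlap, the 3 genes had to have the same sign in the low and the high run. The differences were from -0.31 to -0.17 in the low and from -0.23 to -0.19 in the high run. Of the other receptors and partners, Lgr4 had a log2FC of -0.085 (SE 0.12) and Apc, the scaffold of beta-catenin degradation, of -0.20 (SE 0.17).

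**Figure D4:**
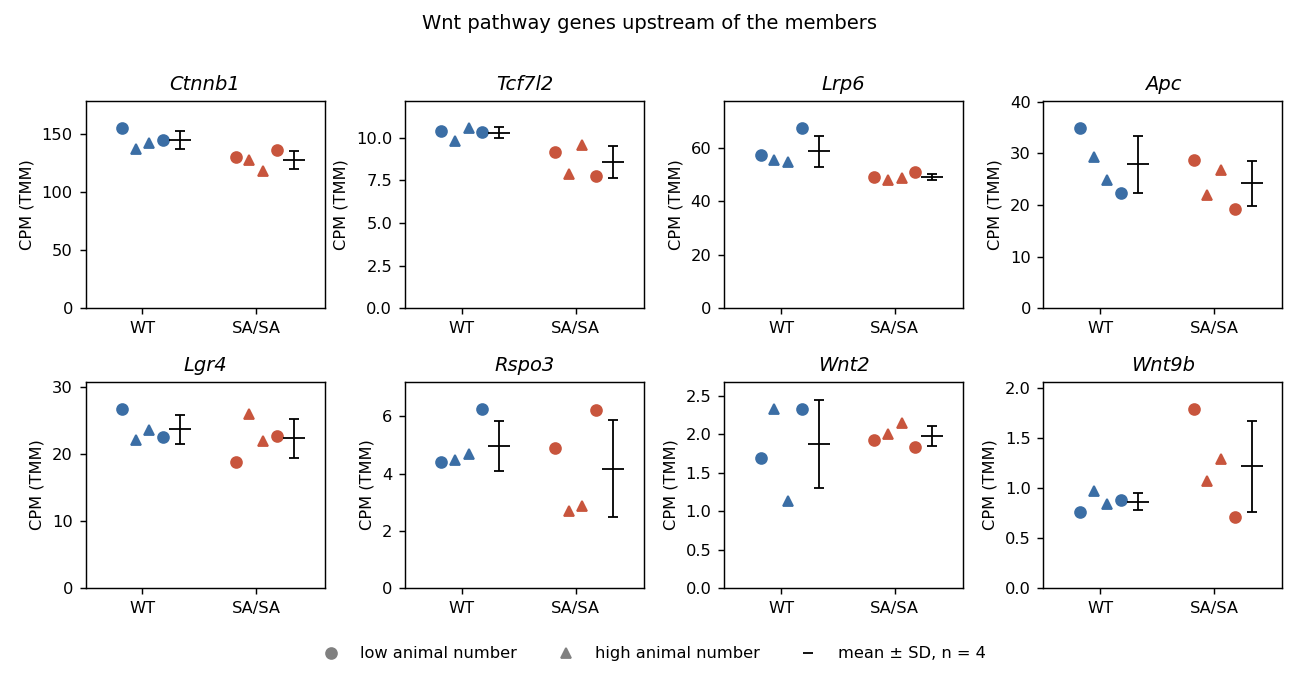
Expression of 8 Wnt pathway genes in each liver, in TMM-normalized CPM on linear axes from 0, with WT in blue and SA/SA in red; circles are mice with low and triangles mice with high animal numbers, and bars give mean ± SD (n = 4). The genotypes do not overlap for Ctnnb1, Tcf7l2 and Lrp6 and overlap for Apc, Lgr4, Rspo3, Wnt2 and Wnt9b.

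Of the 15 Wnt inhibitors, 8 were tested and none passed with edgeR (0 at an unadjusted p under 0.05), with a median log2FC of -0.091. Notum, a secreted enzyme that inactivates Wnt and marks pericentral hepatocytes, had a log2FC of -0.031 (SE 0.16), made of 0.34 in the low and -0.34 in the high run (interaction unadjusted p = 0.00491, adjusted p = 0.282 with edgeR). Nkd1, an intracellular feedback inhibitor, differed by 0.12 and -0.62, and Kremen1, with the smallest unadjusted p of the list (0.148), had a log2FC of -0.24. Of 8 Wnt target genes of many tissues, 7 were tested and none passed with edgeR (0 at an unadjusted p under 0.05). Ccnd1, which encodes cyclin D1, differed by 0.61 in the low and -0.83 in the high run (interaction adjusted p = 0.321), and Sp5 by 1.12 and -0.21 (interaction adjusted p = 0.466). Prox1 had the smallest unadjusted p of these with edgeR, at 0.0688, with a log2FC of -0.39. By run, Prox1 differed by -0.62 in the low and -0.17 in the high run. Over the 7 tested targets the median difference was -0.22 in the low and -0.17 in the high run, so Ccnd1 and Sp5 do not stand for the list.

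Pericentral genes outside the 9 serve xenobiotic, bile acid and nitrogen metabolism. All 22 on the list were tested, 0 passed an adjusted p of 0.05 with edgeR, and 1, Lhpp, had an unadjusted p under 0.05 (log2FC 0.40, SE 0.16, unadjusted p = 0.0293, adjusted p = 0.993). Of all genes, 3.40% had an unadjusted p under 0.05. The median log2FC was 0.085, with 16 of 22 positive (48.8% of all genes). Cyp2e1, a pericentral cytochrome that oxidizes ethanol, was at 7529 ± 1010 CPM in WT and 8284 ± 1821 CPM in SA/SA (SD over 4 mice), a log2FC of 0.14 (SE 0.17). Cyp1a2 had a log2FC of 0.13 (SE 0.19) and Cyp7a1, the rate-limiting enzyme of bile acid synthesis, of 0.28 (SE 0.40).

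Periportal genes, which Wnt signaling keeps low near the central vein, were tested for 20 of 20 genes, with 0 past an adjusted p of 0.05 and a median log2FC of 0.012. Cyp2f2 had the smallest unadjusted p of these. It was at 322, 461, 511 and 438 CPM in WT replicates 1 to 4, and at 306, 362, 190 and 288 CPM in SA/SA replicates 1 to 4, a log2FC of -0.60 (SE 0.20, unadjusted p = 0.0142, adjusted p = 0.993 from edgeR). The genotypes overlapped through WT replicate 1 and SA/SA replicate 2. Hal, which degrades histidine, differed by -0.63 in the low and 0.75 in the high run (interaction unadjusted p = 0.000554, adjusted p = 0.210 with edgeR), and Cps1, the entry enzyme of the urea cycle, by -0.49 and 1.21 (unadjusted p = 0.00564, adjusted p = 0.287). At an unadjusted interaction p under 0.05 there were 7 of 20 periportal and 2 of 22 other pericentral genes, against 11.1% of all genes. Gls2 had a log2FC of 0.073 (SE 0.15), with -0.16 in the low and 0.32 in the high run. Alb had a log2FC of 0.13 (SE 0.16), with -0.20 and 0.42 in the runs (interaction unadjusted p = 0.0221, adjusted p = 0.365 with edgeR).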

How the data were processed

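RNA of 8 livers was sequenced as stranded mRNA libraries. Values as deposited are estimated counts from salmon, given by gene, scaled for average transcript length and not for library size. Length scaling can change a gene's estimated count where isoforms differ between mice. The salmon version and annotation release are not given in the sources used here. The submitters' processing notes list GRCm38, STAR and DESeq2 with no role. Table columns were matched to mice by animal number.

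Estimated counts were rounded. Genes kept by filterByExpr (14629 of 45706) were compared with edgeR 4.0.16 in R 4.3.3 (TMM, quasi-likelihood test, Benjamini-Hochberg adjustment over all genes), with 8 mice and no block. Intervals use the quasi-likelihood standard error. log2 CPM used a prior count of 2. Positions and exon lengths are from GENCODE M21 (GRCm38), which holds 45143 of the table's identifiers. Alternatives were DESeq2 1.42.0, limma-voom (limma 3.58.1), other scalings and filters, a robust fit, blocks and leaving out mice. Between the most similar pair of libraries the chi-square per gene was 41.7, so none was a copy.

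The members and lists were chosen with earlier results of these data known. Named besides the members were a fixed set of Wnt and zonation genes and the gene with the smallest p of each list; genes without overlap were named after their values were seen. Whether mice of a genotype shared a litter is not stated.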

Additional observations from a re-analysis of the deposited data

Results flagged for a closer look

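The genotype effect on Axin2 and Tbx3 had opposite directions in mice with low and with high animal numbers, with no overlap of the genotypes in either run. The interaction, high run minus low run, was -1.57 on the log2 scale for Axin2 (adjusted p = 0.307 with edgeR and 0.0392 with DESeq2) and -1.32 for Tbx3 (adjusted p = 0.222 with edgeR and 0.00237 with DESeq2). Dixon's test for a mouse apart from the other 3 of its genotype, run on 18 sets of values, found 0, where chance gives about 1 in 20.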

How the results depend on the processing

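Of 162 log2 fold changes, from 18 alternatives for each of the 9 genes, 7 reversed, 6 of Tbx3 and 1 of Axin2, and 0 passed an adjusted p of 0.05. The log2 fold change of Tbx3 was -0.10 with limma-voom, -0.11 with the replicate number as a block and -0.11 with the animal number run as a block. Leaving out each mouse in turn, its lowest value was -0.25 (SA/SA replicate 1 out) and its highest 0.26 (SA/SA replicate 2 out), with -0.044 without WT replicate 4 and -0.12 without SA/SA replicate 4. For Axin2 the lowest was -0.13 (SA/SA replicate 4 out) and the highest 0.57 (SA/SA replicate 3 out). The cause was not tested. Without SA/SA replicate 4 the median over the 9 genes was -0.068. The number of all genes that passed was 6 with DESeq2 and 0 in the other alternatives, and the number of the 9 genes that passed the interaction test was 3 with DESeq2 and 0 in the others. The number of correlated pairs was 0 on CPM without TMM and 0 over deviations from the genotype means, against 1. Same-numbered WT and SA/SA mice also belong to the same animal number run. The correlations of their deviations were 0.056, 0.17, -0.11 and 0.13, and for 3 of 4 WT mice the SA/SA mouse most alike had the same number. By chi-square per gene between libraries, this held for WT replicate 4 alone (55.1). WT replicate 1 was closest to SA/SA replicate 2 (105), and WT replicates 2 and 3 to SA/SA replicate 1 (74.4 and 55.3). The labels state no pairing. With the replicate block 0 of 9 genes passed. Leaving out WT replicate 2 and SA/SA replicate 3 together, chosen after seeing the data, gave 0 of 9.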

Other observations

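Among cell types that neighbor pericentral hepatocytes, 0 of 6 central vein endothelial, 12 sinusoidal endothelial, 9 stellate and 8 Kupffer markers passed an adjusted p of 0.05 with edgeR (0% of all genes). At an unadjusted p under 0.05 there were 0, 2, 0 and 0, against 3.40% of all genes. Of the 2 sinusoidal markers, 1 was higher and 1 lower. The log2 fold change was negative for 9 of 9 stellate markers and positive for 8 of 8 Kupffer markers, where it was positive for 48.8% of all genes. Its median was -0.33 for the stellate markers (-0.036 in the low and -0.58 in the high run). For the Kupffer markers the median was 0.20. By run, the Kupffer median difference was -0.49 in the low and 0.90 in the high run. The medians were -0.051 for central vein and -0.21 for sinusoidal endothelium, -0.12 for 7 cholangiocyte, 0.022 for 10 hepatocyte and 0.95 for 12 lymphocyte markers. Of the 14 acinar markers, 2 were tested. The antisense gene Tbx3os1 differed by 0.79 in the low and -1.09 in the high run in mean log2 CPM (interaction adjusted p = 0.434 with edgeR), the same signs as Tbx3.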
